A study of Homo sapiens with 42 samples.

Results

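Chromatin accessibility was examined around 8 immediate early response genes: NR4A1, NR4A2, NR4A3, EGR1, EGR2, EGR3, IER2 and BHLHE40. They are 8 of the 19970 protein-coding genes that were set against the peak lists. The set includes genes near sites gained with FHT-1015 in 22RV1 and RD cells, so it was chosen by the presence of peaks in the samples of those 2 lines. Their values are given below as a description with no test, and tests use the other 5 lines. A locus is the gene with 50 kb on each side in GRCh38, and a peak belongs to it where its summit lies inside. By RefSeq the genes lie at chr12:52022832-52059503 (NR4A1), chr2:156324437-156332721 (NR4A2), chr9:99821885-99866891 (NR4A3), chr5:138465479-138469303 (EGR1), chr10:62811996-62819167 (EGR2), chr8:22687659-22693480 (EGR3), chr19:13150411-13154911 (IER2) and chr3:4979437-4985323 (BHLHE40).

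The study profiled open chromatin by ATAC-seq in 42 samples of 7 human cancer cell lines. FHT-1015, a dual inhibitor of the SMARCA4 and SMARCA2 ATPases of the BAF chromatin remodelling complex, or DMSO was given for 4 h, with 3 samples labelled as biological replicates in each of the 14 groups. MV411 is an acute myeloid leukemia line, HCT116 came from a colorectal adenocarcinoma and DU4475 from an invasive breast carcinoma. The melanoma lines are A375 and, of uveal origin, 92-1, while RD stands for rhabdomyosarcoma and 22RV1 for prostate adenocarcinoma. All groups carry the genotype label WT, and DMSO was the negative control. Each tumour type is represented by 1 established line. Nothing in the labels says that replicates came from separate cultures, so p-values measure the spread between these samples.

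Immediate early genes are transcribed within minutes of a growth factor, stress or depolarisation signal, without new protein synthesis. Their promoters are usually open before the signal and are read by serum response factor with ETS partners, by CREB and by AP-1. The EGR genes encode zinc finger factors, the NR4A genes orphan nuclear receptors, IER2 a small nuclear protein, and BHLHE40 a basic helix-loop-helix repressor tied to the circadian clock and hypoxia.

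Sample quality differed between lines. Replicates 2 and 3 of 92-1 with FHT-1015 held 2037 and 1412 peaks with −log10 q of at least 5, here called strict peaks, while the other 40 lists held 13760 to 121774. In those 2 samples 82524 and 82276 peaks tied with the 50000th peak, and ties were broken at random. MV411 held 105420 to 121774 strict peaks with DMSO and 52664 to 53585 with FHT-1015, and its background pileup was 0.400 to 0.495 with DMSO and 0.260 to 0.270 with FHT-1015. Depth itself is not stated, and this background is the nearest stand-in. Start peaks of lineage markers were looked for in the DMSO samples. Most lines had some of their markers, but SOX10, MLANA and TYR had none in A375, KLK3 and HOXB13 none in 22RV1, MYF5 none in RD, and CDX1, VIL1 and LGR5 none in HCT116, where no marker had a start peak in all 3 samples. Several were not specific to a line. MITF and CEBPA had start peaks in all 3 DMSO samples of every line, and PMEL in some of every line. Only MITF and PMEL of the melanocytic list were found in A375.

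The sequence before the gene start was taken from RefSeq (GRCh38.p14), which held 6 of the 8 genes, NR4A2 and EGR3 being the others. The 250 bases upstream are printed for EGR1, the EGR2 start on which its leading peak lies, NR4A3 and IER2, because EGR1 and IER2 had the lowest p of the 8 starts in the limma test below, EGR2 holds CRE cores and a CArG box as EGR1 does, and NR4A3 held the most CRE cores. Capitals mark the CRE core TGACG, bound by CREB, on either strand, and the CArG box of serum response factor.
EGR1, chr5:138465229-138465478, plus strand: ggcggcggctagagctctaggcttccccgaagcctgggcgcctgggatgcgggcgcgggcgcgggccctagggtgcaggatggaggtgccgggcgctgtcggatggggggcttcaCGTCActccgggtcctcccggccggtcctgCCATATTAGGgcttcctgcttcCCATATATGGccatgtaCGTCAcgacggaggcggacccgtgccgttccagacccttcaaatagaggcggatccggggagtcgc
EGR2, chr10:62816367-62816616, minus strand: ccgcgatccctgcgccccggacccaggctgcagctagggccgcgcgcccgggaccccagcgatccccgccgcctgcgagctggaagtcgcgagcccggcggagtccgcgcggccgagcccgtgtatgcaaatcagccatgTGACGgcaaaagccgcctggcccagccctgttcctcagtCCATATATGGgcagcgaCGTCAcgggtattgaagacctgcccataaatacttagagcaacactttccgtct
NR4A3, chr9:99821635-99821884, plus strand: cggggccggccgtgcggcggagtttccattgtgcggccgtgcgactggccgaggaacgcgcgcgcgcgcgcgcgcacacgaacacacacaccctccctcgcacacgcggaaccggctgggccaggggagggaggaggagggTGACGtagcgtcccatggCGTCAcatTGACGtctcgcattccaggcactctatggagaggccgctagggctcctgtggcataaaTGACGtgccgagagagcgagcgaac
IER2, chr19:13150161-13150410, plus strand: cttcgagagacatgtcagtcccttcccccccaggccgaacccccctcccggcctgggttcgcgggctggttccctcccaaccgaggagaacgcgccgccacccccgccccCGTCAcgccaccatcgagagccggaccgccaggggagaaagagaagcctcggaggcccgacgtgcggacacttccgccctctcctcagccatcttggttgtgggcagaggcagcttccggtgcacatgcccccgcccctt

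EGR1 held 2 CRE cores and 2 CArG boxes in this window, and EGR2 held 2 CRE cores and 1 CArG box. Over 22155 promoters of the same length, 24.1% held a CRE core and 1.18% a CArG box. NR4A3 held 4 CRE cores and IER2 held 1. The motifs were searched on both strands, and no CRE core of these promoters lay in a full TGACGTCA site. IER2 also held 1 ETS core CCGGAA (17.9% of promoters) and 3 SP sites GGGCGG (53.7%), left in lower case. BHLHE40, which is not printed, held 5 SP sites and no CRE core or CArG box. None of the windows searched held the EGR motifs GCGTGGGCG or GCGGGGGCG, the AP-1 motifs TGACTCA or TGAGTCA, or the NR4A motif AAAGGTCA.

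Lists were cut at their 50000 strongest peaks by −log10 p so that lists of equal length were compared. Over the 42 samples 25.1% of the peaks of the 8 loci lay within 1 kb of a start of the member gene, 16.7% within 1 kb of another gene's start and 58.2% farther off. Peaks between 45 and 50 kb from a member gene numbered 21 over all samples, and those between 50 and 55 kb, just outside the loci, numbered 47. The NR4A1 locus holds ACVR1B, TAMALIN, ATG101 and SMIM41, the IER2 locus LYL1, TRMT1, NACC1 and STX10, and the EGR1 locus KDM3B, REEP2 and ETF1. EGR2 shares its locus with ADO, NR4A3 with STX17 and EGR3 with BIN3 and PEBP4, while NR4A2 and BHLHE40 have no protein-coding neighbour in the window.

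With DMSO, the 8 loci together held most peaks in DU4475 (69.7 ± 4.73, SD, n = 3) and A375 (68 ± 5). RD followed with 61.7 ± 4.16, then HCT116 with 46.7 ± 4.51, MV411 with 46 ± 1, 22RV1 with 43.7 ± 5.13 and 92-1 with 39.7 ± 8.62. DU4475 (66 to 75) overlapped A375 (63 to 73) and A375 overlapped RD (57 to 65), while DU4475 lay above RD. RD lay above HCT116 (42 to 51), and the last 4 lines overlapped one another. With FHT-1015 the sum was 86, 97 and 86 in A375, against 63 to 73 with DMSO. The A375 ranges overlapped among strict peaks (54 to 121, against 45 to 83) and among all deposited peaks (153 to 220, against 135 to 173). In MV411 the sum among the 50000 strongest was 56 to 59, against 45 to 47. There the order was the other way among strict peaks (57 to 60, against 82 to 94) and among all deposited peaks (100 to 112, against 116 to 134). The mean over all genes also differed most in these 2 lines, with 5.05 and 5.96 peaks per locus in A375 and 3.82 and 4.48 in MV411. In the other 5 lines the ranges of the 2 treatments overlapped.

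**Figure D1:**
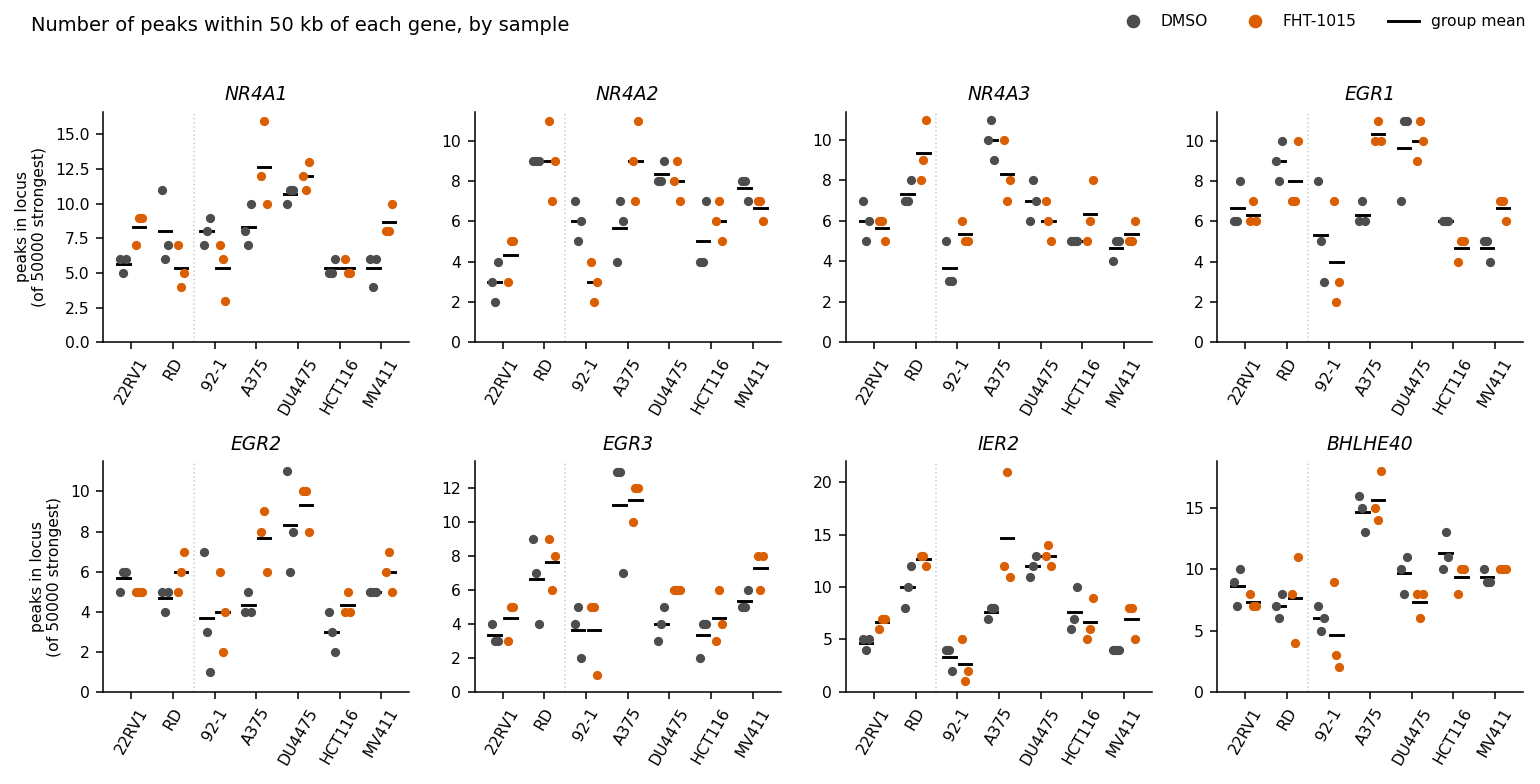
Number of peaks per locus (vertical axis), among the 50000 strongest of a sample, whose summit lies inside the gene or within 50 kb of it, by cell line. Each point is a sample, bars are group means, and each panel is a gene; in A375 the FHT-1015 samples of EGR1 (10, 11 and 10) sit above its DMSO samples (6, 7 and 6).

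Over the 5 lines tested, none of the 8 loci held more or fewer peaks with FHT-1015 by the exact stratified permutation test (two-sided, Benjamini-Hochberg over 19970 genes, adjusted p below 0.05). Of all genes, 3.61% held more and 0.976% fewer. EGR2 alone had an unadjusted p below 0.05, with 4.87 peaks with DMSO and 6.27 with FHT-1015 on average and a higher mean in 5 of 5 lines (difference 1.40, exact permutation test, p = 0.032, adjusted p = 0.172). IER2 differed by 1.87 peaks (adjusted p = 0.227), NR4A1 by 1.27 (adjusted p = 0.316) and EGR3 by 1.07 (adjusted p = 0.305). EGR1 differed by 0.733 (adjusted p = 0.582), NR4A3 by 0.200 (adjusted p = 0.947), NR4A2 by 0 and BHLHE40 by −0.800 (adjusted p = 0.534). The median over all genes was a difference of 0.333. Without 92-1, 2 of whose FHT-1015 lists hold the fewest strict peaks, the difference of NR4A1 was 2.25 and passed (adjusted p = 0.0367, exact test), where 5.35% of all genes held more. Among the 20000 strongest peaks that of IER2 was 2.33 and passed (adjusted p = 0.0219, exact test), where 8.23% held more. Among strict peaks that of NR4A3 was −1.80 and passed (adjusted p = 0.0483, exact test), where 21.1% of all genes held fewer and the median gene differed by −0.933.

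Within a line 3 samples stand against 3, so the exact two-sided test cannot go below p = 0.1, and the groups are described by whether they overlap. In A375, the IER2 locus held 7, 8 and 8 peaks with DMSO and 12, 21 and 11 with FHT-1015, the EGR1 locus 6, 7 and 6 against 10, 11 and 10, and the EGR2 locus 4, 5 and 4 against 8, 9 and 6. These 3 of 8 members had every FHT-1015 sample above every DMSO sample, as had 17.0% of all genes in A375 (below: no member, 4.30%). In MV411 the NR4A1 locus held 6, 4 and 6 against 8, 8 and 10, the EGR1 locus 5, 5 and 4 against 7, 7 and 6, and the IER2 locus 4, 4 and 4 against 8, 8 and 5. Here 3 of 8 members lay above, beside 19.1% of genes (below: no member, 4.50%). Among strict peaks none lay above in MV411 (0.0150% of genes) and 6 of 8 lay below (57.8%). EGR3 in DU4475 held 3, 4 and 5 against 6, 6 and 6, the 1 member above there, beside 5.66% of genes (below: no member, 3.30%).

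In HCT116 and 92-1 the members that stood apart did so the other way. The EGR1 locus in HCT116 held 6, 6 and 6 peaks with DMSO and 4, 5 and 5 with FHT-1015, the 1 member below there, beside 2.29% of genes (above: no member, 2.84%). NR4A2 in 92-1 held 7, 5 and 6 against 4, 2 and 3, again the 1 member below, beside 4.71% of genes (above: no member, 4.59%). In 22RV1, where the contrast helped choose the members, the NR4A1 locus held 6, 5 and 6 against 7, 9 and 9 and the IER2 locus 5, 4 and 5 against 6, 7 and 7. Those 2 lay above, beside 9.65% of genes (below: no member, 5.97%). No member stood apart in RD, where 6.27% of genes lay above and 6.75% below. The A375 and MV411 counts come from the 2 lines with the highest share of all genes above, and no test was made of the counts. When pileups were thinned to a common background, which leaves out 92-1, none of the 7 pairs of member and line above stayed apart, nor did EGR1 in HCT116. Thinned lists were filtered by −log10 p and not cut at 50000 peaks, so their lengths were not made equal. Few genes lay above after thinning: 0.0701% in A375, 1.46% in MV411 and 0.756% in DU4475. In HCT116 0.766% lay below after thinning. NR4A3 in MV411, with 7, 6 and 6 peaks against 4, 5 and 4, then lay below, as did 3991 of 19970 genes there.

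Strength was followed as the rank number of the strongest peak within 1 kb of a gene start, 1 being the strongest peak of the sample. A lower rank number is nearer the top, and a start with no peak among the 50000 got the next number. The 8 starts were unlike. EGR1 had a median rank number of 5859 over the 42 samples, NR4A3 6195, BHLHE40 7267, EGR2 8302 and NR4A2 9899, while IER2 (30583), NR4A1 (35050) and EGR3 (41275) lay farther from the top. For NR4A1 only the starts at chr12:52022832 and chr12:52037715 were measured. The lowest rank numbers of any sample were 95 for BHLHE40 and 156 for EGR1, both in A375.

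**Figure D2:**
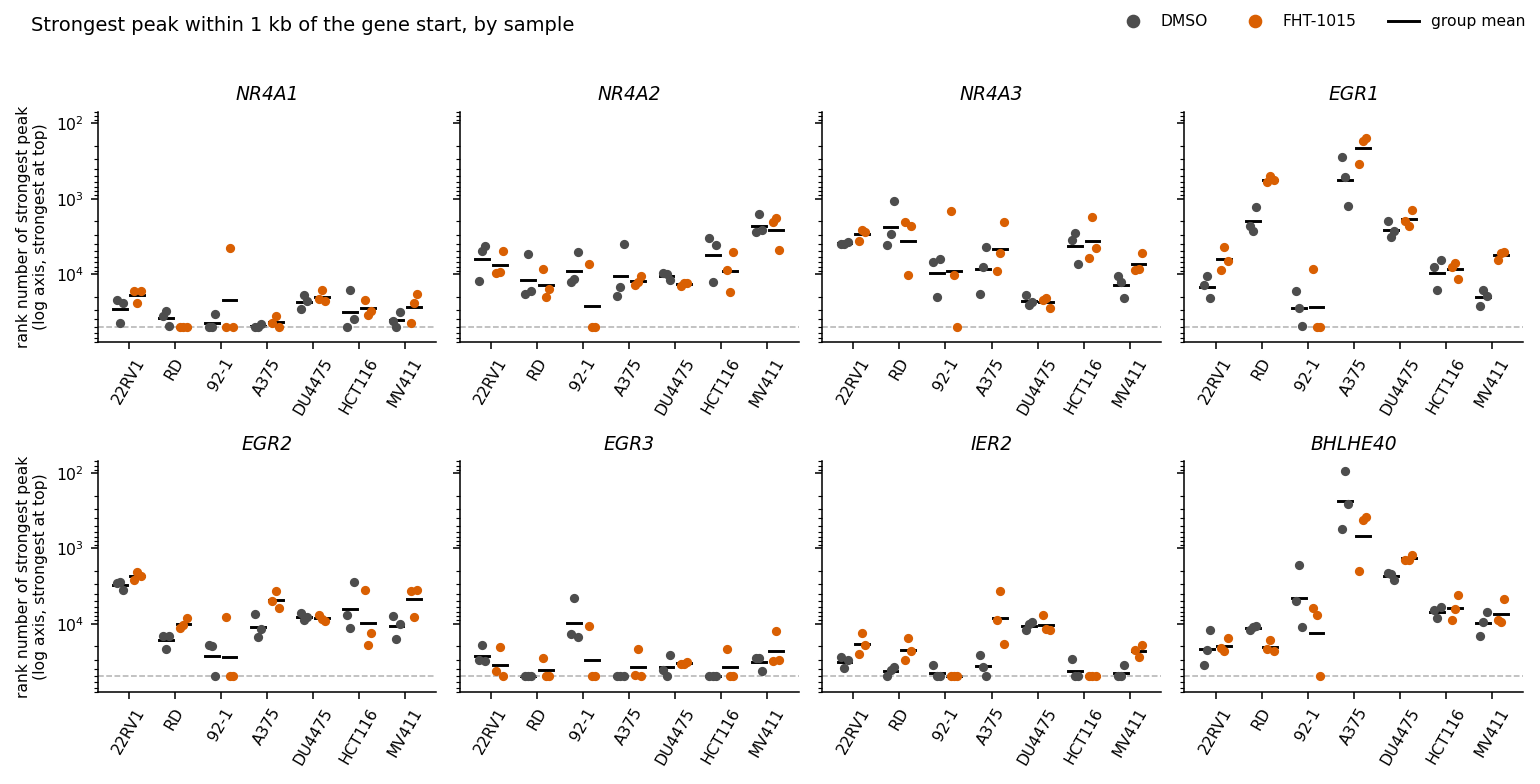
Rank number of the strongest peak within 1 kb of each gene start on a log axis with the strongest peaks at the top; the dashed line marks starts with no peak among the 50000 strongest. Each point is a sample and bars are geometric means; EGR1 with FHT-1015 lies above its DMSO samples in 22RV1, RD and MV411, and BHLHE40 in A375 reaches 95.

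EGR1 encodes the zinc finger factor most often used as a readout of growth factor signalling. Its start peak in MV411 had rank numbers 26400, 16045 and 19686 with DMSO and 6529, 5190 and 5126 with FHT-1015. In RD they were 2312, 2701 and 1270 against 606, 498 and 571, and in 22RV1 13887, 10740 and 21078 against 8914, 4386 and 6611. Every FHT-1015 sample of these 3 lines was nearer the top than every DMSO sample, as for 57.8% of all starts in MV411, 10.7% in RD and 35.3% in 22RV1. A375 gave 282, 518 and 1248 against 351, 173 and 156, and DU4475 1978, 3217 and 2655 against 1967, 2324 and 1420, with the groups overlapping in both though the means lay nearer the top. HCT116 gave 8113, 16441 and 6527 against 7953, 7037 and 11596, which overlap. In 92-1 the DMSO samples had 16593, 27888 and 49012, and FHT-1015 had 8488 and 2 samples with no peak among the 50000. In the 5 lines tested the log2 rank number of EGR1 differed by −0.78 (SE 0.27), and limma gave an adjusted p of 0.0669. Without 92-1 the difference was −0.97 (SE 0.23) and passed (limma, adjusted p = 0.00763), where 21.5% of all starts ranked nearer the top. It also passed among the 20000 strongest peaks (−0.81, limma adjusted p = 0.0163), where 10.6% of starts ranked nearer the top.

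IER2, a nuclear protein induced by serum, had a weak start peak in most samples. In A375 its rank numbers were 25697, 37877 and none among the 50000 with DMSO, and 8943, 3647 and 18338 with FHT-1015, so the groups did not overlap. In MV411 only 1 DMSO sample had a peak there (35546), while the FHT-1015 samples had 22293, 27504 and 18875. DU4475, where the peak was strongest, gave 12096, 10088 and 9582 against 7657, 11680 and 12108 and did not separate. In HCT116 and 92-1 no FHT-1015 sample had a start peak among the 50000, and 1 DMSO sample of each line had one (29172 and 35380). In 22RV1 the rank numbers were 27339, 38045 and 30566 against 24859, 13428 and 19120. RD gave none, 41247 and 36877 against 30600, 15412 and 23099, so that both lines that chose the members had the FHT-1015 samples nearer the top. Of all starts, 17.5% were apart in this way in A375, 57.8% in MV411, 35.3% in 22RV1 and 10.7% in RD. The IER2 difference in the 5 lines was −0.54 (SE 0.20, limma adjusted p = 0.0871). Without 92-1 it was −0.72 (SE 0.22, limma adjusted p = 0.0231), where 21.5% of all starts ranked nearer the top and the median start differed by −0.38.

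IER2 in A375 was the 1 member that passed within a line in the common limma fit, by −2.12 on the log2 scale (SE 0.45, adjusted p = 0.0165), where 1.27% of the 11198 gene starts in that fit ranked nearer the top and the median start differed by −0.36. The call was lost without replicate 3 of A375 with DMSO (−1.89, limma adjusted p = 0.0556) or replicate 2 with FHT-1015 (−1.51, adjusted p = 0.122), and with sample quality weights (−1.64, adjusted p = 0.0604). It was also lost with 100000 peaks (−2.21, limma adjusted p = 0.0990), and with the same difference of −2.12 without MV411 (adjusted p = 0.0580) or with A375 fitted on its own (adjusted p = 0.202). Background pileup in A375 was 0.606 to 0.901 with DMSO and 0.707 to 1.35 with FHT-1015, and the part of depth in this result was not tested. No member passed toward the top in 92-1 (2.49% of starts), DU4475 (0%), HCT116 (0.0804%) or MV411 (0.366%), and none passed away from the top in any of the 5. Toward the top EGR1 in MV411 came nearest (−1.86, SE 0.60, limma adjusted p = 0.0929), and away from it EGR3 in 92-1 (1.62, SE 0.55, adjusted p = 0.0867). That fit gives all lines 1 spread per gene, and the SD of the EGR1 log2 rank number was 0.36 and 0.20 in MV411 but 0.78 and 1.48 in 92-1 (DMSO and FHT-1015). Fitted on its own, MV411 gave 5664 of 10990 starts nearer the top, among them EGR1 (−1.86, SE 0.32, adjusted p = 0.00204), EGR2 (−1.19, adjusted p = 0.0234), IER2 (−0.98, adjusted p = 0.0217) and NR4A3 (−0.95, adjusted p = 0.0395), by limma. The median start differed by −0.89 in MV411. Strict peaks and background pileup also differed between the treatments in this line, as given above, and their part in these values was not tested.

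With the 5 lines together, 0 of 8 members passed by limma, where 5.96% of the 11198 starts ranked nearer the top, 0.982% farther from it, and the median start differed by −0.31. EGR1 and IER2 alone were below an unadjusted p of 0.05 (0.00647 and 0.0122). A test of whether the 5 lines differ from one another called none of the 8 (0.705% of starts), IER2 having the lowest adjusted p, 0.136 by limma.

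EGR2, a factor of myelination and of lymphocyte tolerance, ranked nearer the top in A375, with 7324, 14877 and 11760 against 5010, 3664 and 6093 (17.5% of all starts apart this way). DU4475, with 7135, 9011 and 8061 against 7668, 8571 and 9204, did not separate, nor did HCT116, with 7676, 11406 and 2813 against 3537, 19273 and 13402. In MV411 the values 7946, 15724 and 10004 against 3670, 8047 and 3537 overlapped by 1 sample. The lines that chose the members had 2894, 2759 and 3536 against 2649, 2076 and 2338 (22RV1) and 14402, 21649 and 14730 against 11464, 10458 and 8455 (RD), apart in both (35.3% and 10.7% of all starts). Its log2 rank number over the 5 lines differed by −0.32 (SE 0.29, limma adjusted p = 0.471). EGR3, which acts beside EGR2 in lymphocytes, had no start peak among the 50000 in any DMSO sample of RD, A375 or HCT116. It was strongest in 92-1 with DMSO (13642, 4608 and 14827), where FHT-1015 gave 10795 and 2 samples without a peak. Its difference over the 5 lines was 0.03 (SE 0.25, limma adjusted p = 0.953).

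Among the NR4A receptors, NR4A3 ranked nearer the top in MV411, with 10665, 12808 and 20539 against 8839, 8539 and 5197 (57.8% of all starts apart this way), and in 22RV1, with 3933, 4021 and 3803 against 3649, 2570 and 2748 (35.3%). A375 gave 18341, 7954 and 4361 against 8982, 5320 and 2058, and DU4475 19062, 25861 and 23766 against 21799, 20713 and 27907, both overlapping. NR4A2, needed for midbrain dopamine neurons, went the other way in DU4475, with 9792, 10006 and 11902 against 14320, 12940 and 13215 (5.62% of all starts apart that way). It was strongest in MV411, with 2800, 1603 and 2641 against 2040, 1800 and 4768, and there the groups overlapped. In the test of the 5 lines NR4A2 differed by 0.60 (SE 0.30, limma adjusted p = 0.182) and NR4A3 by −0.42 (SE 0.36, adjusted p = 0.449). NR4A1, the receptor induced in activated T cells, had a start peak among the 50000 in 30 of 42 samples. In RD it was present with DMSO (35465, 31324 and 49440) and in no FHT-1015 sample (9.88% of all starts apart away from the top). Its difference over the 5 lines was −0.42 (SE 0.27, limma adjusted p = 0.310). A region inside NR4A1 (chr12:52051149-52051648), 13684 bp past the second start, lies outside this measure. In the deposited lists 40 samples held it, 36 with a strict peak. The region 824 bp past the first start was held by 38 samples, 18 with a strict peak.

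BHLHE40 had its strongest start peak in A375, with 547, 95 and 259 against 1974, 423 and 389, where the groups overlap. In DU4475 it ranked nearer the top with FHT-1015, 2146, 2183 and 2657 against 1407, 1405 and 1233 (8.90% of all starts apart this way). In RD it ranked farther from the top, 12213, 11073 and 10719 against 21320, 16395 and 23176 (9.88%). HCT116 (6594, 8357 and 5918 against 9000, 6344 and 4161) and MV411 (14504, 9552 and 6886 against 8855, 9397 and 4708) overlapped. Its difference over the 5 lines was 0.34 (SE 0.32, limma adjusted p = 0.493).

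Over the starts with a peak in at least 3 of the 6 samples of a line, every FHT-1015 sample lay nearer the top than every DMSO sample for 2 members in A375 (17.5% of starts), 3 in MV411 (57.8%), 1 in DU4475 (8.90%), 0 in HCT116 (9.66%) and 0 in 92-1 (3.90%). In the lines that chose the members the counts were 4 in 22RV1 (35.3%) and 3 in RD (10.7%). The reverse held for 1 member in DU4475 (5.62% of starts) and 2 in RD (9.88%), and for none in A375 (4.49%), MV411 (3.43%), HCT116 (3.27%), 92-1 (5.57%) or 22RV1 (9.86%). The count in MV411 lies below its background.

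The strongest element of a locus was often not at the start of its gene. Non-overlapping 500 bp regions were laid over the summits of all lists, and a region was present in a sample where a deposited peak, with no limit on rank, overlapped it by at least 100 bp. A wide peak can cover neighbouring regions. The 8 loci held 713 of 2142442 regions, of which 5 were present in all 42 samples, 26 in at least 38, and 185 in 1. The 5 were the region at one end of NR4A2 (chr2:156332522-156333021), the BHLHE40 start (chr3:4979221-4979720), a region 26662 bp downstream of the EGR1 start (chr5:138491891-138492390), an NR4A1 region between its starts (chr12:52032824-52033323) and a region 1483 bp into IER2 (chr19:13151644-13152143).

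The IER2 region at 1483 bp lies outside the 1 kb window of the start measure and was the strongest of its locus in 23 of 42 samples. Rank numbers of regions count from the top of the full list, so that up to 50000 they are the same as among the 50000 strongest, and above that they are given as a description. Those of this region were 14289, 12989 and 7591 with DMSO and 3204, 428 and 3588 with FHT-1015 in A375, and 21756, 30085 and 34511 against 16541, 5346 and 10186 in MV411. In RD they were 14980, 17943 and 34015 against 7308, 12386 and 6412, and in 22RV1 22413, 21124 and 40233 against 7755, 14419 and 7599. Every FHT-1015 sample was nearer the top in these 4 lines. DU4475 (9703, 11177 and 7784 against 9197, 6899 and 7989) and HCT116 (6307, 8267 and 4975 against 14340, 3143 and 2722) overlapped, and 92-1 ranged from 986 to 296997. The IER2 body and its start thus separated in the same 4 lines, 2 of which chose the members, and no test was made of this region's rank. Of all starts, 57.8% separated toward the top in MV411, 35.3% in 22RV1, 17.5% in A375 and 10.7% in RD. The share over all regions was not computed. In MV411 the median start differed by −0.89, as given above.

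The leading regions of other loci behaved differently. NR4A2's lay 9166 bp from the nearer gene end (chr2:156341637-156342136) and in MV411 ranked farther from the top with FHT-1015, 1891, 3298 and 1975 against 5389, 5975 and 4501, though the median start of that line differed the other way. Of all starts in MV411, 3.43% were apart in that direction. In 22RV1 the NR4A2 region was held by 1 DMSO sample (rank number 212506) and 3 FHT-1015 samples (232992, 102444 and 107487). The deposited lists of 22RV1 held 240484 to 371713 peaks. EGR3's lay 1905 bp from a gene end and had rank numbers 46874, 41233 and 45551 against 14579, 15995 and 14222 in MV411. In 22RV1 the same region had 13610, 27406 and 15954 against 56541, 31109 and 32786. The groups were apart in both lines, in opposite order, and this was not tested. Of all starts, 57.8% were apart toward the top in MV411 and 9.86% away from it in 22RV1. NR4A1's lay 336 bp from the start of its neighbour ATG101 and in A375 gave 8766, 12604 and 6493 against 4788, 498 and 2051. In that line 17.5% of all starts were apart toward the top.

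**Figure D3:**
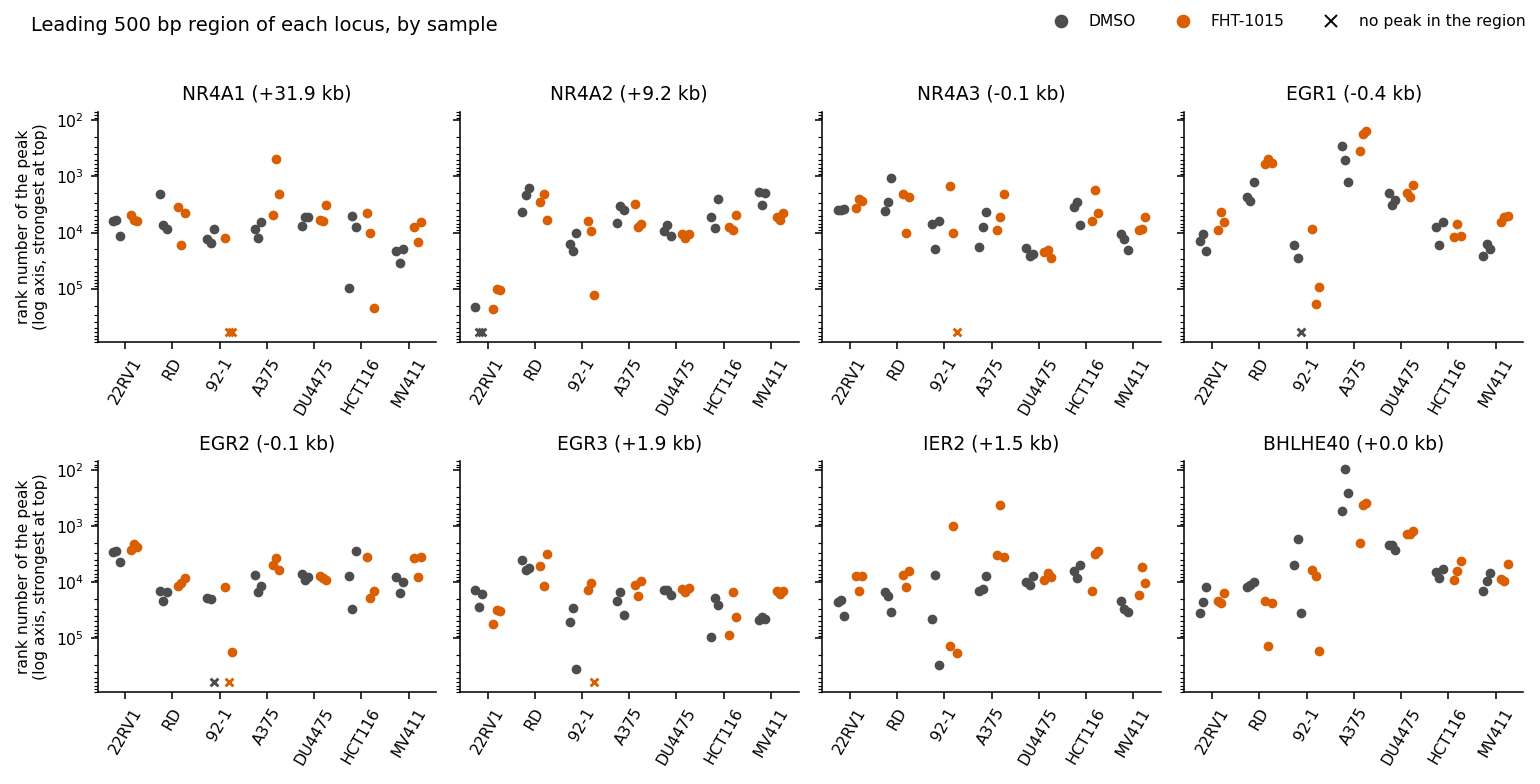
Rank number (vertical axis) by cell line, in the full deposited list, of the peak over the leading region of each locus, on a log axis with the strongest at the top; the title gives the distance of the region from the gene start or end. Each point is a sample and crosses mark samples with no peak there; the IER2 region with FHT-1015 lies above its DMSO samples in 22RV1, RD, A375 and MV411.

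A region was called lost where all 3 DMSO samples of a line held it and no FHT-1015 sample did, and gained in the reverse case. MV411 lost 11 of 80 regions of the loci, beside 19.7% of all regions, and 92-1 lost 7 of 30 (35.2%). A375 lost 3 of 76 (9.02%), HCT116 3 of 38 (6.41%) and DU4475 0 of 60 (6.48%). In the lines that chose the members, 22RV1 lost 4 of 51 (18.0%) and RD 4 of 58 (15.9%). A375 gained 8 of 74, or 10.8%, beside 3.28% of all regions, and 4 of the 8 lay in the NR4A1 locus. The remaining gains were 1 of 37 in HCT116 (3.04%), 0 of 62 in DU4475 (4.60%), 0 of 56 in MV411 (1.62%), 0 of 10 in 92-1 (10.9%), 3 of 38 in 22RV1 (10.6%) and 1 of 43 in RD (4.57%). The share lost in the loci was below that of all regions in 6 of the 7 lines, HCT116 being the exception, and no test was made of these shares.

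**Figure D4:**
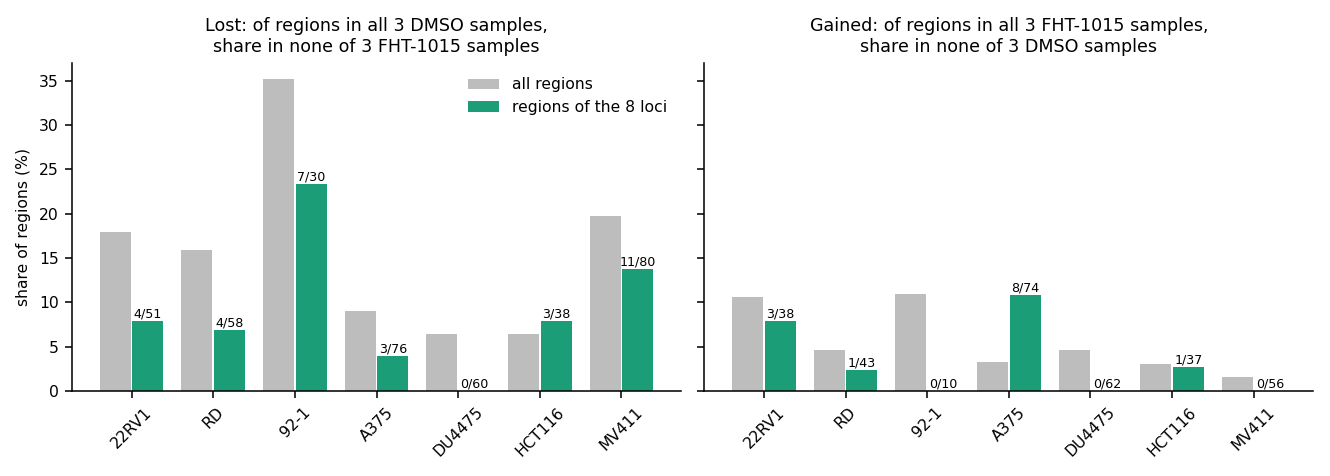
Share of regions lost (left) and gained (right) with FHT-1015 in each line, over all regions and over those of the 8 loci; the label gives the regions of the loci lost or gained over those that could be. A375 gained 8 of 74 in the loci, and MV411 lost 11 of 80.

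The gained region of highest rank in A375 lay inside NR4A1 (chr12:52051820-52052319), with rank numbers 5023, 5214 and 3010 with FHT-1015 and no peak with DMSO. It is the edge of a wide peak and not a separate one. In all 3 FHT-1015 samples the peak that reached it, 1292 to 1368 bp wide, overlapped a peak of every DMSO sample. The same peak covers chr12:52050502-52051001, where the DMSO samples ranked at 5784, 3386 and 3431. The second in A375 (chr12:52060177-52060676), just past the end of NR4A1, had rank numbers 42694, 5263 and 17799, and in 2 of the 3 samples its peak overlapped a peak of every DMSO sample. Of the 8 gains in A375, 4 had no FHT-1015 peak that overlapped peaks of all 3 DMSO samples. Over the 7 lines this held for 9 of 13 gains and 30 of 32 losses, a count made after the values were seen.

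In 22RV1 the strongest gain was near NR4A2 (chr2:156335439-156335938), with 18374, 21900 and 20599. In MV411, which did not choose the members, all 6 samples held that region, with 54288, 44741 and 54587 against 14367, 8805 and 18020. It was in no sample of RD, A375 or DU4475. The gain in RD, 1009 bp into BHLHE40 (chr3:4980196-4980695), had 35907, 27211 and 21450, and in HCT116 the same region was lost, present with DMSO at 10709, 32006 and 120958.

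The clearest loss was a region 33970 bp from the BHLHE40 start and outside any protein-coding gene (chr3:5013157-5013656). In HCT116 it had rank numbers 2048, 2108 and 13618 with DMSO and no peak with FHT-1015, and in MV411 32616, 43938 and 34339 and again no peak. A375 kept it in 3 DMSO samples (20872, 25830 and 117801) and 2 FHT-1015 samples (91740 and 164718). Over the 5 lines tested, 12 DMSO and 4 FHT-1015 samples held it (exact stratified permutation test, p = 0.006, adjusted p = 1 over 1905713 regions). Among strict peaks 8 DMSO and 0 FHT-1015 samples held it (exact test, p = 0.001, adjusted p = 0.746). By this test no region of the genome passed the adjustment, while 10778 were held less often and 1151 more often at an unadjusted p below 0.05. The smallest p of any region was 1.25e-05 (exact test). With 3 samples against 3 in each line, a region lost in only 2 lines could hardly pass over 1905713 regions. The adjusted p therefore does not show that regions were unchanged. Of the 639 regions of the loci tested, 2 were held less often and 2 more often at that level.

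The EGR3 locus in A375 lost a region inside its neighbour BIN3, with rank numbers 7311, 6381 and 12803 with DMSO and none with FHT-1015. Here too the DMSO peak, 766 to 895 bp wide, overlapped a peak of every FHT-1015 sample, so that its edge and not the whole peak was missing. A region of NR4A1 in 92-1 (chr12:52010211-52010710) was held at 27370, 26993 and 24887 with DMSO and by no FHT-1015 sample, in the line with the weakest lists.

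**Figure D5:**
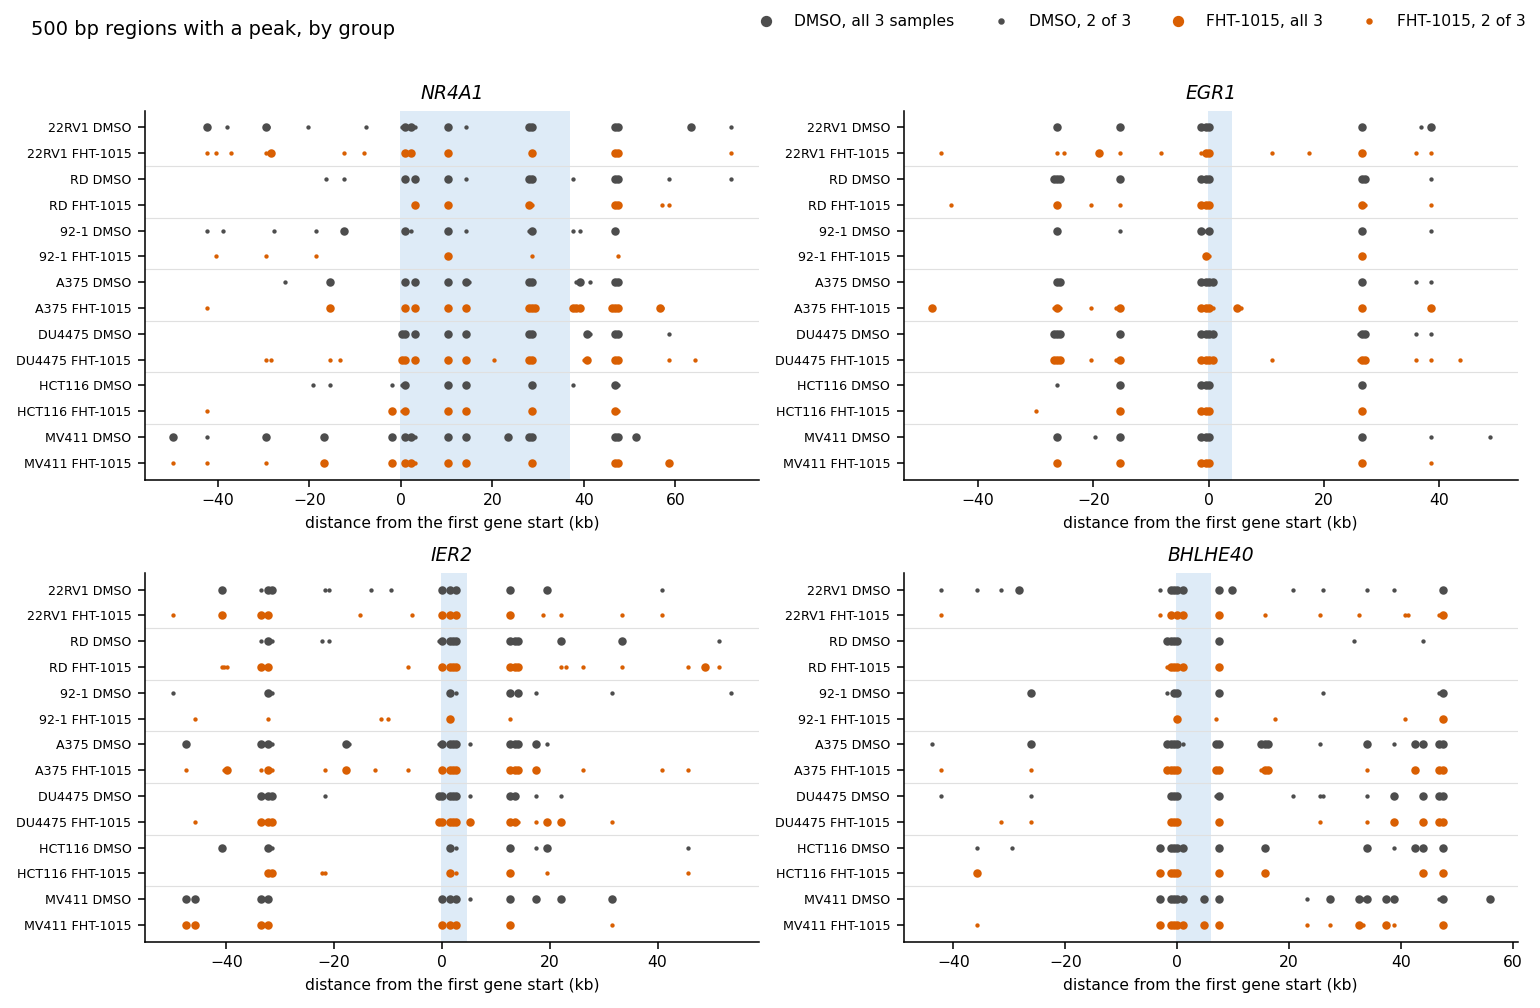
Regions of 4 loci (horizontal axis, distance from the first gene start in kb; vertical axis, line and treatment), with the gene shaded. Large points mark regions in all 3 samples of a group and small points those in 2; the BHLHE40 region near 34 kb is held by all 3 DMSO samples of A375, HCT116 and MV411 and by no FHT-1015 sample of HCT116 or MV411.

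A list of 35 other immediate early genes was set beside the members. In the same tests over the 5 lines 3 of 35 loci held more peaks, beside 3.61% of all genes, and 0 fewer: JUNB, an AP-1 subunit (3.53 peaks, exact test, adjusted p = 0.0412), GADD45B, a stress sensor (3.13, adjusted p = 0.0247), and PPP1R15A, which restores translation after stress (1.67, adjusted p = 0.0264). Of the 34 starts with enough peaks, 4 ranked nearer the top, beside 5.96% of all starts, and 0 farther: GADD45B (−1.22, SE 0.30, limma adjusted p = 0.0182), FOS (−1.15, SE 0.24, adjusted p = 0.00693), KLF6 (−1.05, SE 0.27, adjusted p = 0.0223) and PPP1R15A (−0.93, SE 0.27, adjusted p = 0.0366). FOS is the founding AP-1 subunit, and KLF6 a zinc finger factor. The median of the list was a difference of 0.600 peaks and −0.42 in log2 rank number, beside 0.333 and −0.31 over all genes. EGR1 and IER2 differed by −0.78 and −0.54 and did not pass. With the 20000 strongest peaks 6 of the list held more, beside 8.23% of genes, and with 100000 none did, beside 0.0451%. Without 92-1, 4 of 34 starts of the list ranked nearer the top, beside 21.5% of all starts. With 20000 peaks 3 of 28 did, beside 10.6%, and with 100000 peaks 2 of 34, beside 2.07%.

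The genes whose locus peak number followed each member most closely over the 14 group means, counting genes that start over 1 Mb away or on another chromosome, were CREB3L1 for NR4A1 (Pearson r = 0.932), VMA22 for NR4A2 (0.934), PRKAR2A for NR4A3 (0.930) and RABGGTA for EGR1 (0.955). For EGR2 it was HMCES (0.940), for EGR3 ZFR (0.945), for IER2 PAFAH1B3 (0.987) and for BHLHE40 FABP1 (0.932). These points share lists, lines and depth, and 3537 genes exceeded r = 0.8 with IER2 against 105 with BHLHE40.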

How the data were processed

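ATAC-seq libraries were made by the original method with bead size selection, per the labels' protocols. Bowtie2, Picard, MACS2, limma, HOMER and hg38 are named in the submitters' processing notes without versions or order. The authors deposited 1 narrowPeak list per sample. Its fold enrichment is a ratio of pileup to background, and its p-values and q-values are deposited as −log10. All are the authors' values and served only to rank or filter peaks within a list.

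Chromosomes 1 to 22 and X were used. The background pileup of a sample was solved from the deposited fold and −log10 p under a Poisson model. Peak numbers per locus were tested by an exact permutation within lines over 30 samples. Log2 rank numbers, for starts with a peak in at least 15 of the 30 samples, were fitted with limma 3.58.1 (R 4.3.3) as 10 groups, the contrast being the mean of 5 within-line differences. Gene starts came from RefSeq (GRCh38.p14); NR4A2 and EGR3 used either gene end. Each test was tested on simulated data. Members and lists were chosen with earlier results of these data known. Every member is named. Of the other immediate early genes those passing a test, and of regions the 2 gained and 2 lost of highest mean percentile per line, were eligible to be named. Alternatives were shorter and longer lists, strict peaks, thinning, windows, lines, single samples, pairing and weights. Python 3.11.15, numpy 2.4.6 and pandas 2.3.3 were used.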

Additional observations from a re-analysis of the deposited data

Results flagged for a closer look

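Some members moved in opposite directions in different lines, with every FHT-1015 sample on one side of every DMSO sample. None of these differences between lines was tested. The EGR1 locus held 4.00 peaks more with FHT-1015 in A375 and 2.00 more in MV411, and differed by −1.33 in HCT116. With pileups thinned to a common background the groups overlapped in all 3 lines, and the differences were 0 in A375, 0.667 in MV411 and −0.667 in HCT116. The log2 rank number of the BHLHE40 start peak differed by 0.83 in RD, a line whose sites chose members, and by −0.78 in DU4475.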

How the results depend on the processing

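Alternatives moved several counts by more than 1.5 times. The number of members with more peaks was 1 with the 20000 strongest peaks (8.23% of all genes) and 1 without 92-1 (5.35%), and with fewer peaks 1 among strict peaks (21.1%). Member and line pairs with FHT-1015 above numbered 7, and 3 with 100000 peaks, 0 with strict peaks, 1 with all deposited peaks and 0 when thinned to a common background without 92-1, an alternative for single lines chosen after seeing the data. In A375, MV411 and DU4475, which held the 7, the share of all genes above was 0.481%, 0.0150% and 0.275% with strict peaks. With all deposited peaks it was 3.5%, 0.62% and 4.2%, and when thinned 0.0701%, 1.46% and 0.756%. The share with 100000 peaks was not computed. Pairs below numbered 2, and 0 with 20000 peaks, 1 with 100000, 9 with strict peaks, 1 with a 100 kb window and 1 when thinned. The 9 lay in MV411 (6, beside 57.8% of genes), DU4475 (2, beside 11.6%) and HCT116 (1, beside 1.97%). For start ranks, 1 member was nearer the top with 20000 peaks (10.6% of all starts) and 2 without 92-1 (21.5%). Within lines 1 pair was nearer, and 0 with 100000 peaks, 4 with sample quality weights (5972 of 11198 starts passed in MV411), 2 without 92-1, 0 without MV411, 0 in the lines whose peak names hold the word small, 2 in the others and 4 with each line fitted on its own, an alternative chosen after seeing the data. Without 92-1, 778 of 11426 starts ranked nearer the top in A375 and 2688 in MV411. In the fit of the lines without small, 952 of 12141 did in A375 and 0 in DU4475. With 100000 peaks 1 pair was farther from the top, and with no filter on genes 1 member differed between lines. Of 12252 starts with 100000 peaks, 616 were farther in 92-1, 16 in A375, 14 in MV411, 11 in HCT116 and 0 in DU4475. With no filter, 552 of 16732 starts differed between lines. Regions lost in the 5 lines numbered 24, and 9 with strict peaks, 9 with 250 bp overlap and 13 without MV411, and the 9 gained became 1 with strict peaks. Of the other immediate early genes, 6 held more peaks with 20000 and 0 with 100000 (0.0451% of all genes), where 2 were nearer the top (2.07%).

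Some differences in locus peak number turned negative. NR4A1 gave −1.47 with strict peaks, −1.47 with all deposited peaks and −0.667 when pileups were thinned to a common background without 92-1. NR4A3 gave −1.80 (strict), −2.67 (all), −0.833 (thinned), −0.167 (without 92-1) and −1.33 (only lines without small in peak names). EGR1 gave −0.0667 (strict) and −0.222 (only lines with small in peak names), and EGR2 −0.533 (strict) and −0.467 (all). EGR3 gave −0.133 (100000 peaks), −1.07 (strict), −1.93 (all) and −0.833 (thinned), and IER2 −0.467 (strict) and −0.667 (all). In log2 start rank EGR3 gave −0.0664 with 100000 peaks, −0.37 without 92-1 and −0.29 in the lines without small, and BHLHE40 −0.59 with a 500 bp window. The cause was not tested.

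Leaving out each sample in turn gave 0 to 1 members nearer the top, 0 to 2 pairs nearer, 0 to 2 pairs farther and 0 to 2 members that differed between lines. Without replicate 1 of 92-1 with FHT-1015, 1695 of 11101 starts were farther from the top in 92-1 and 1684 differed between lines. In that fit 372 were nearer in A375 and 913 in MV411. The other fits had at most 324 farther in 92-1 and at most 127 that differed. EGR1 passed without replicate 2 (limma adjusted p = 0.0300) or 3 (0.0223) of 92-1 with FHT-1015 and without replicate 1 of A375 with DMSO (−0.88, 0.0482), and IER2 without replicate 3 of A375 with FHT-1015 (−0.65, 0.0402). In these fits, in the same order, 1405 of 11168, 1998 of 11167, 486 of 11104 and 547 of 11075 starts ranked nearer the top. EGR3 ranged from −0.0824 to 0.17 in log2 start rank. Losses ranged from 24 to 40, the most without replicate 3 of 92-1 with DMSO, and gains from 9 to 14, the most without replicate 1 of A375 with FHT-1015 or replicate 3 of DU4475 with FHT-1015. Leaving out a sample only loosens the rule for lost and gained, so neither count could fall.

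Replicate numbers did not pair the samples (r of same-numbered deviations −0.088 to 0.195 over 21 pairs). With the replicate block 0 members held more peaks, EGR1 and IER2 had limma adjusted p of 0.0615 and 0.0932 over the 5 lines, and IER2 in A375 0.0303, so that no call changed. Start ranks in strict and full lists were not run, since a start with no peak would get a number set by the length of the list. Background pileup from 0.0341 to 2.79 limits which weak peaks a list can hold.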
